A study of Mus musculus with 6 samples.

Results

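Eosinophils, basophils and mast cells are granule-bearing cells of allergic inflammation and of defence against parasites, and 10 genes of their granule proteins and IgE receptor are described here. They are Prg2, Epx, Ear1, Ear2 and Ear6 of eosinophils, Mcpt8 and Prss34 of basophils, and Cpa3, Ms4a2 and Fcer1a, which basophils share with mast cells. The genes were chosen by name, all 10 were among the 54532 genes of the FPKM table, and all 10 passed the filter that 14011 genes passed, a mean of at least 1 FPKM. FPKM are fragments per kilobase of gene, scaled to the size of the library, so levels of different genes can be set side by side.

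Mouse femurs were sequenced in 2 groups of 3 libraries. The OVX group held ovariectomized mice, labelled wild type and given saline. The Zin group received zingerone, a phenolic compound of ginger, in a daily oral dose of 100 mg/kg over 8 weeks, and the labels do not say whether these mice were ovariectomized too. The labels used here name no strain or age. Values could be tied to labels for the OVX group, as libraries 1, 2 and 3, and the zingerone libraries were not analysed here, so no effect of zingerone or of ovariectomy was tested. The titles give 8, 9 and 10 weeks to OVX libraries 1, 2 and 3, so week and library cannot be told apart.

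The libraries held 17017907, 16964740 and 16581579 reads. The characteristics name RAW264.7, a macrophage-like cell line, while the extraction text names femurs, and the libraries held transcripts of many cell types. The globin gene Hbb-bs stood at 23367 ± 3287 FPKM (SD, n = 3), the B cell gene Cd79a at 170 ± 9.22 and the bone collagen gene Col1a1 at 858 ± 651. In such bulk tissue, fewer cells of a type and less RNA per cell cannot be told apart.

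Eosinophils form in the bone marrow under the cytokine IL-5 and pack their granules with cationic proteins, among them the major basic protein encoded by Prg2, a peroxidase encoded by Epx and ribonucleases encoded by the Ear genes. Basophils also mature in marrow and carry their own serine proteases, whereas mast cells mature in tissues and carry chymases, tryptases and the carboxypeptidase Cpa3. Basophils and mast cells bind IgE through a receptor of an alpha chain (Fcer1a), a beta chain (Ms4a2) and gamma chains (Fcer1g), and its crosslinking by antigen releases the granules.

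All 5 eosinophil genes were abundant and each was lowest in library 1. The order of mean levels was Prg2, Ear2, Ear1, Ear6, Epx, Prss34, Mcpt8, Cpa3, Fcer1a and Ms4a2. Neighbours in this order did not overlap over the 3 libraries, with the exception of Ear2 and Ear1 and of Cpa3 and Fcer1a. By mean level Prg2 ranked 14 among all genes of the table, Ear2 106, Ear1 114, Ear6 147 and Epx 313. Of the basophil genes Prss34 ranked 630 and Mcpt8 1261, and Cpa3, Fcer1a and Ms4a2 ranked 5181, 6150 and 8614.

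**Figure D1:**
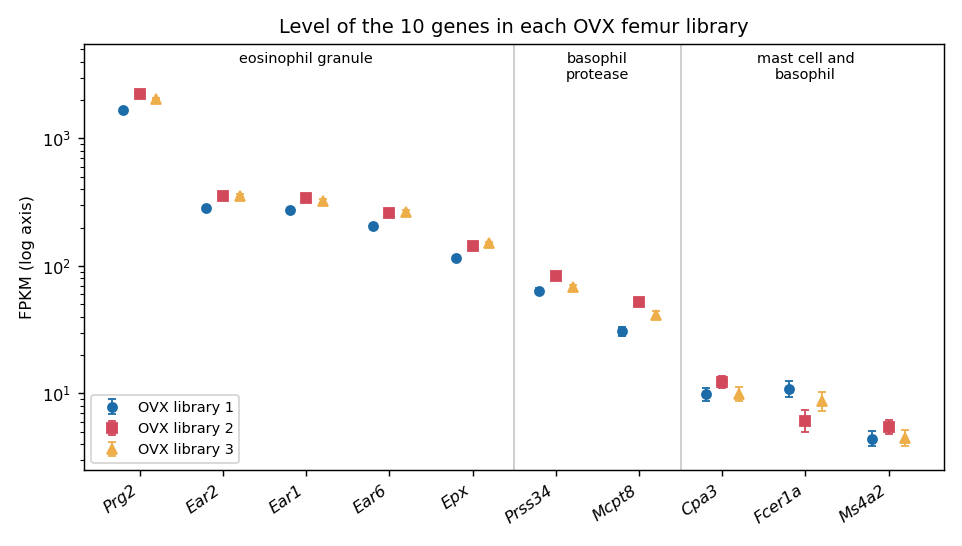
Level of each gene in the 3 OVX libraries, in FPKM on a log axis, with exact Poisson 95% intervals that cover counting error only. The eosinophil genes lie above 100 FPKM in each library, the basophil proteases between 30.7 and 83.7, and Cpa3, Fcer1a and Ms4a2 between 4.42 and 12.3.

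Reads per gene could be recovered from the FPKM values, which allowed a chi-square test of whether a gene differed between the libraries by more than the counting of reads gives. By this test, with Benjamini-Hochberg adjustment over the 14011 genes and a threshold of 0.05, 9 of the 10 genes differed between libraries. The same held for 38.7% of all tested genes, and a gene with many reads reaches a call more easily than a gene with few. Called and lowest in library 1 were 8 of the 10 genes, against 10.8% of all tested genes, and called and highest in library 2 were 5, against 13%. The highest library exceeded the lowest by a median of 1.30 times over the 10 genes and 1.15 times over all tested genes. The coefficient of variation between libraries had a median of 13.5% over the 10 genes and 7.49% over all tested genes. The test compares libraries, not conditions.

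Between pairs of libraries, 8 of the 10 genes differed between libraries 1 and 2, against 29.7% of all tested genes. Between libraries 1 and 3 the count was 6, against 18.2%, and between libraries 2 and 3 it was 7, against 25%. With median-of-ratios scaling 9 of the 10 differed over the 3 libraries, against 37.2% of all tested genes, and 7 were called and lowest in library 1, against 12.9%.

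Prg2, which encodes major basic protein, the arginine-rich toxin of the eosinophil granule core, had 1675, 2219 and 2049 FPKM in libraries 1, 2 and 3. Library 1 was the lowest and library 2 the highest. The mean was 1981 ± 278 FPKM (SD, n = 3), from 24255, 31319 and 28391 reads. Library 2 was 1.32 times library 1 (95% counting interval 1.30 to 1.35) and library 3 was 1.22 times library 1 (chi-square test over the 3 libraries, Benjamini-Hochberg adjusted p = 5.63e-204). The gene (ENSMUSG00000027073) lies on mm10 chromosome 2 from 84980461 to 84983632, plus strand.

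Epx encodes eosinophil peroxidase, which forms hypobromous acid from bromide and hydrogen peroxide. Its level was 116, 142 and 152 FPKM in libraries 1, 2 and 3, with a mean of 136 ± 18.7 (SD, n = 3). Library 1 was again the lowest, and here library 3 was the highest. Library 2 was 1.23 times library 1 (1.19 to 1.27) and library 3 was 1.31 times library 1 (chi-square test, adjusted p = 2.13e-43). The gene (ENSMUSG00000052234) lies on chromosome 11 from 87864000 to 87875536, minus strand. Within a library the FPKM of Prg2 were 14.5 ± 1.05 times those of Epx (SD, n = 3).

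Ear1, Ear2 and Ear6 encode eosinophil-associated ribonucleases of the RNase A family, a rapidly duplicating family in rodents, and all map to chromosome 14. Ear1 (ENSMUSG00000072601, 43818765 to 43875517, minus strand) was measured at 272, 344 and 324 FPKM in the 3 libraries, a mean of 313 ± 36.9 (SD, n = 3). Ear2 (ENSMUSG00000072596, 44102654 to 44103534, plus strand) was at 284, 350 and 356 FPKM, a mean of 330 ± 39.8. Ear6 (ENSMUSG00000062148, 51853699 to 51854643, plus strand) was at 206, 258 and 265 FPKM, a mean of 243 ± 32.2. In each of the 3 genes library 1 lay below the other libraries, which lay close to each other. Library 2 was 1.26 times library 1 for Ear1 (1.21 to 1.32), 1.23 times for Ear2 (1.18 to 1.29) and 1.25 times for Ear6 (1.20 to 1.31). The chi-square test over the libraries gave adjusted p = 1.17e-18 for Ear1, 1.65e-20 for Ear2 and 1.79e-24 for Ear6. Without library 1 neither Ear2 nor Ear6 passed it, at adjusted p = 0.569 and 0.335.

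The ratio between the ribonucleases varied less than their levels. The FPKM of Ear1 were 0.9502 ± 0.0361 times those of Ear2, and those of Ear6 were 0.734 ± 0.01001 times those of Ear2 (SD, n = 3). This was not particular to the ribonucleases, since the FPKM of Prg2 were 6.31 ± 0.151 times those of Ear1. The sequences 5′ of the Ear gene starts show how alike these copies are. They are printed 5′ to 3′ in the direction of the gene, from RefSeq on GRCm38.p6, with a C/EBP motif in capitals (TTGCNNAA, searched on both strands). Ear1 (chr14:43819640-43819889, minus strand) and Ear2 (chr14:44102404-44102653, plus strand) are shown at 250 bases. Ear6 (chr14:51853518-51853698, plus strand) is shown at 181 bases, since the rest of its window is exon in the GENCODE annotation. The start that RefSeq gives for Ear1 lies inside the longer span listed in the table.
Ear1: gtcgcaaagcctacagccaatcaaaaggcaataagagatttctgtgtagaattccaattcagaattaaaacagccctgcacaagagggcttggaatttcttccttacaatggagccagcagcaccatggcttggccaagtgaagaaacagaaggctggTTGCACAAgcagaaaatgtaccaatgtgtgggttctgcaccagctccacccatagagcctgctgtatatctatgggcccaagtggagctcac
Ear2: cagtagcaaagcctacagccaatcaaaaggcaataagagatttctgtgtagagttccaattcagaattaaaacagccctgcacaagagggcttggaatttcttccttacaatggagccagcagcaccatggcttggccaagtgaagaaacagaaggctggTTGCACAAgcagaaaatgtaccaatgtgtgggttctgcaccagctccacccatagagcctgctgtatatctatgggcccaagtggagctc
Ear6: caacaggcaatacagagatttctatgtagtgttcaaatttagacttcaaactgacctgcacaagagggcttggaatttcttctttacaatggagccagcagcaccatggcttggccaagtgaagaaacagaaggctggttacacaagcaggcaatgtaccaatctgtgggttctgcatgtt

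Ear1 and Ear2 matched at 246 of 248 aligned bases upstream (99.2%), Ear1 and Ear6 at 90.6%, and Ear2 and Ear6 at 91.1%. The motif TTGCNNAA was found upstream of Ear1 and Ear2 and not of Ear6, and it occurs in 9.55% of 27025 RefSeq promoters over 250 bases. A match of letters is a description and not a site of binding. The transcripts were less alike than these windows, with 96.8% identity between Ear1 and Ear2, 85.2% between Ear1 and Ear6 and 86.0% between Ear2 and Ear6.

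Reads of Ear1 and Ear2 could have been split between copies, and these levels are uncertain for that reason. Of the windows of 50 bases along the transcript, 57.4% of Ear1 and 41.5% of Ear2 also occurred in transcripts of other genes, and 1.07% of Ear6. Of the other genes described here, Ms4a2 shared 2.69% of such windows, all with Ms4a4b. At windows of 100 bases the shares were 23.9% for Ear1, 13.9% for Ear2 and 0% for Ear6. The read length and the treatment of reads that map to several places are not stated in the sources used here. The table lists 12 further Ear genes and pseudogenes, of which 9 had no reads, and Ear10 had 5, 5 and 3 reads. Ear-ps9, a pseudogene inside the span of Ear1, stood at 4.85, 5.33 and 3.62 FPKM.

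Further genes of the RNase A family were lower. Rnase4 had 13.6, 19.5 and 16.7 FPKM in libraries 1, 2 and 3 and differed between them (chi-square test, adjusted p = 2.09e-05, and 0.0652 without library 1). Rnase6 had 16.4, 16.6 and 15.5 FPKM, Rnase12 had 7.65, 8.91 and 8.18, and neither passed the test. Rnase2a and Rnase2b had at most 3 reads in any library. Of the 7 tested genes in this list 4 differed between libraries, and without Ear1, Ear2 and Ear6 it was 1 of 4, against 38.7% of all tested genes.

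Prss34 and Mcpt8 encode serine proteases of the basophil granule, also known as mMCP-11 and mMCP-8. Prss34 (ENSMUSG00000056399, chromosome 17, 25298394 to 25300161, plus strand) stood at 63.2, 83.7 and 67.7 FPKM in libraries 1, 2 and 3, a mean of 71.6 ± 10.8 (SD, n = 3). Library 2 stood above the other 2, which were close to each other. It was 1.32 times library 1 (1.23 to 1.42), while library 3 was 1.07 times library 1 (chi-square test over the 3 libraries, adjusted p = 2.72e-12). Without library 2 the gene did not pass the test, at adjusted p = 0.408.

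Mcpt8 (ENSMUSG00000022157, chromosome 14, 56082166 to 56085273, minus strand) stood at 30.7, 52.0 and 41.2 FPKM, a mean of 41.3 ± 10.7 (SD, n = 3). The 3 libraries stood apart, with library 1 lowest and library 2 highest. Library 2 was 1.69 times library 1 (1.52 to 1.89) and library 3 was 1.34 times library 1 (chi-square test, adjusted p = 4.19e-18). Each pair of libraries also differed. The FPKM of Prss34 were 2.06, 1.61 and 1.64 times those of Mcpt8 in libraries 1, 2 and 3.

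**Figure D2:**
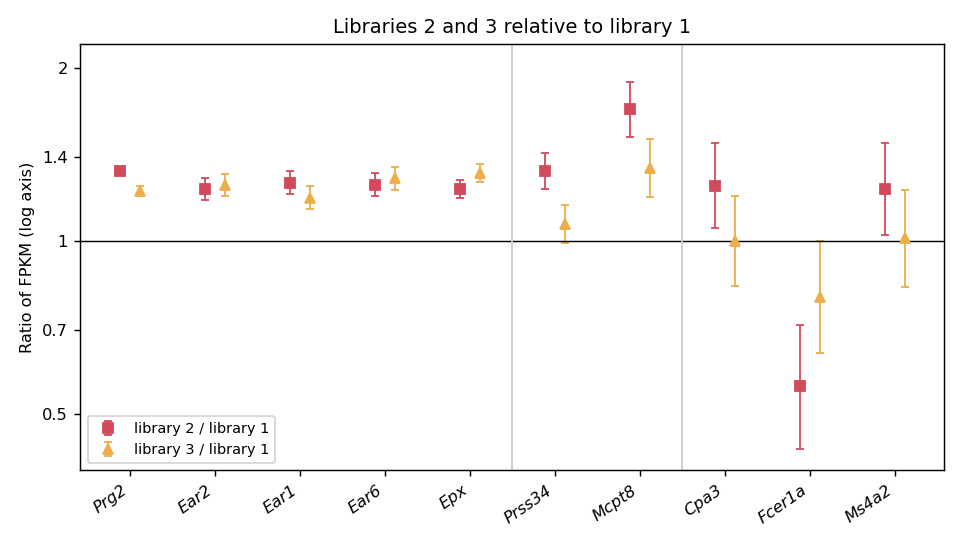
FPKM of each gene in libraries 2 and 3 divided by that in library 1, on a log axis, with exact 95% counting intervals. Library 2 exceeds library 1 in 9 of the 10 genes, from 1.23 times for Ear2, Epx and Ms4a2 to 1.69 times for Mcpt8, and Fcer1a lies below 1 at 0.560.

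Cpa3 encodes carboxypeptidase A3, a granule exopeptidase of mast cells that basophils also express. Its level was 9.84, 12.3 and 9.85 FPKM in libraries 1, 2 and 3, over 258, 314 and 247 reads, with a mean of 10.7 ± 1.41 (SD, n = 3). Library 2 was the highest and the other 2 were level. Library 2 was 1.25 times library 1 (1.06 to 1.48), with adjusted p = 0.0396 by the chi-square test over the libraries. The call was lost without library 2 (adjusted p = 0.921), without library 3 (0.0569) and with no filter on low genes (0.0614). Its lowest library was library 1 on the deposited scale and library 3 with median-of-ratios or upper-quartile scaling. The gene (ENSMUSG00000001865) lies on chromosome 3 from 20215620 to 20242181, minus strand.

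Fcer1a, the alpha chain that binds IgE (ENSMUSG00000005339, chromosome 1, 173221284 to 173227214, minus strand), stood at 10.8, 6.07 and 8.67 FPKM in libraries 1, 2 and 3, with 187, 102 and 143 reads. It was the only one of the 10 genes with its highest level in library 1 and its lowest in library 2. Library 2 was 0.560 times library 1 (0.435 to 0.716) and library 3 was 0.799 times library 1 (chi-square test over the 3 libraries, adjusted p = 3.13e-05). Without library 2 the call was lost (adjusted p = 0.116).

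Ms4a2, the beta chain that amplifies the signal (ENSMUSG00000024680, chromosome 19, 11615523 to 11623719, minus strand), stood at 4.42, 5.44 and 4.47 FPKM, with 215, 258 and 208 reads. Library 2 was the highest here, at 1.23 times library 1 (1.02 to 1.48), but the gene did not pass the chi-square test over the libraries (adjusted p = 0.119). The mean levels were 8.53 ± 2.39 FPKM for Fcer1a and 4.78 ± 0.576 for Ms4a2 (SD, n = 3). The FPKM of Fcer1a were 2.45, 1.11 and 1.94 times those of Ms4a2 in libraries 1, 2 and 3. Fcer1g, the gamma chain shared with Fc receptors of other myeloid cells, was far higher, at 221, 210 and 211 FPKM. Its FPKM were 26.4 ± 7.29 times those of Fcer1a (SD, n = 3).

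Some of these genes held a GATA motif 5′ of their starts. AGATAA, the motif bound by GATA factors, was found on either strand within 250 bases upstream of Cpa3, Prss34, Ms4a2 and Fcer1a, in 4 of the 9 genes with a RefSeq promoter entry and in 10.3% of 27025 promoters. GATA factors are known to act in basophil, mast cell and eosinophil development. The other GATA motif searched, TGATAA, was in none of the 9 and in 8.16% of all promoters, and the PU.1 motif GAGGAA was upstream of Fcer1a and in 23.1% of all promoters. Mcpt8, also a basophil gene, held no AGATAA, in a window of 174 bases, since the rest is exon, as in the shorter window of Ear6. Ms4a2 held 3 matches of AGATAA, at 224, 37 and 11 bases before its start. The windows of the 4 genes with a match are shown. They are Cpa3 (chr3:20242182-20242431, minus strand), Prss34 (chr17:25298144-25298393, plus strand), Ms4a2 (chr19:11623720-11623969, minus strand) and Fcer1a (chr1:173227230-173227479, minus strand), from RefSeq on GRCm38.p6, with every motif match in capitals (AGATAA reads TTATCT where it lies on the other strand).
Cpa3: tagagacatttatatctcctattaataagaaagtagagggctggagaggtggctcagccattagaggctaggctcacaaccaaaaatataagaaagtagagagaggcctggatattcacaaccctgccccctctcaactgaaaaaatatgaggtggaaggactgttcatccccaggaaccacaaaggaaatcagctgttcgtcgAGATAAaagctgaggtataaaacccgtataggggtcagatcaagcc
Prss34: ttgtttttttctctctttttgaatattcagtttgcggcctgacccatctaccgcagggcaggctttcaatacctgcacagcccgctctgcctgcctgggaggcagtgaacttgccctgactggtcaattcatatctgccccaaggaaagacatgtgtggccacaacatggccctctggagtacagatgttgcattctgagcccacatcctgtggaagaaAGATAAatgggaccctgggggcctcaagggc
Ms4a2: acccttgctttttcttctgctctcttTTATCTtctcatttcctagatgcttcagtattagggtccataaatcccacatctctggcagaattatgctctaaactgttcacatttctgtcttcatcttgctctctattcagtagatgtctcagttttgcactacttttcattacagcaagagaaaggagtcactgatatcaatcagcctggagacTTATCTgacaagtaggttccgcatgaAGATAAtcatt
Fcer1a: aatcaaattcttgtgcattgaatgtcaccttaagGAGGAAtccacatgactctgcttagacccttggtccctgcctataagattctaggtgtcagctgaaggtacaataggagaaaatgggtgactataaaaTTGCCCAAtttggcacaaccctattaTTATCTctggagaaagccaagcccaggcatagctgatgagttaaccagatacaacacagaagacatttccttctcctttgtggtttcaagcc

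The sequence of Fcer1a also holds GAGGAA at 216 and TTGCCCAA at 118 bases before its start. These matches say nothing about binding in these libraries.

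Summed over the 5 eosinophil genes, the level was 2553, 3312 and 3145 FPKM in libraries 1, 2 and 3, or 0.273% ± 0.0331 of all reads (SD, n = 3). Library 1 held the lowest sum. Prss34 and Mcpt8 together came to 94.0, 136 and 109 FPKM, again lowest in library 1. Cpa3, Ms4a2 and Fcer1a together came to 25.1, 23.8 and 23.0 FPKM, a sum in which the high Fcer1a of library 1 offset its lower Cpa3 and Ms4a2. Counting alone gives a coefficient of variation between 0.598% for Prg2 and 8.33% for Fcer1a, and the observed values were 14.0% and 28.0%.

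Mast cell proteases and receptors were near the limit of detection. The 10 genes Cma1, Mcpt1, Mcpt2, Mcpt4, Mcpt9, Tpsb2, Tpsab1, Tpsg1, Mrgprb1 and Mrgprb2 held 17, 19 and 23 reads together in libraries 1, 2 and 3. Tpsg1 had no reads, where a count of 0 allows up to 3 reads in a library, and no gene of the 10 had more than 15 reads in a library. Their summed level was 0.834, 1.02 and 1.19 FPKM, below that of Ms4a2 alone. Kit, the stem cell factor receptor of mast cells and of marrow progenitors, stood at 6.93, 6.65 and 5.82 FPKM. Of the list of mast cell granule and surface genes 5 of 7 tested genes differed between libraries, against 38.7% of all tested genes, and 4 did with median-of-ratios scaling, where Srgn was lost. The list summed to 183 to 197 FPKM. Most of that sum was Srgn, the proteoglycan serglycin of many blood cells, at 132 ± 3.58 FPKM (SD, n = 3), followed by the histidine decarboxylase gene Hdc at 18.6 ± 2.89 and the heparan sulfate enzyme gene Ndst2 at 14.3 ± 0.796. Hdc had 16.2, 17.9 and 21.8 FPKM in libraries 1, 2 and 3 (chi-square test, adjusted p = 1.65e-18).

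**Figure D3:**
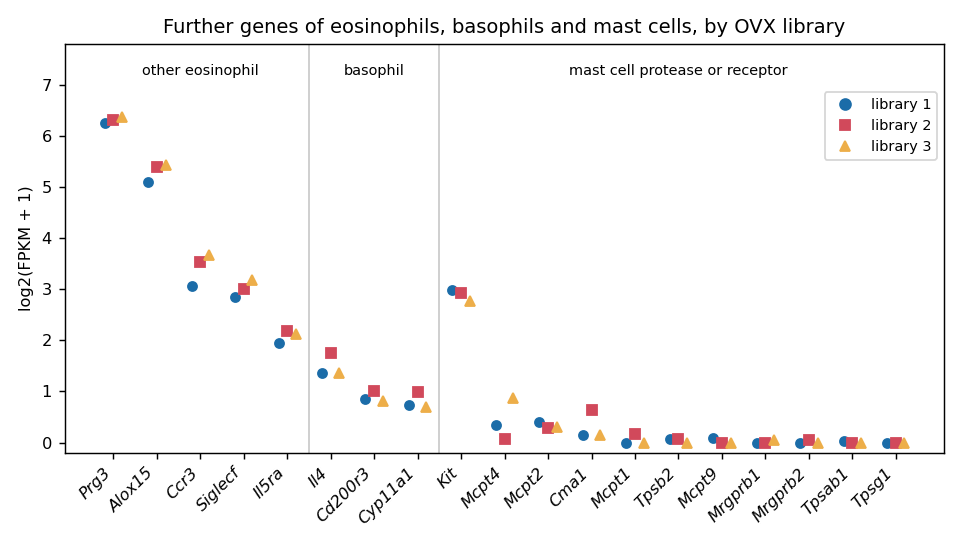
Further genes of eosinophils, basophils and mast cells in libraries 1, 2 and 3, as log2(FPKM + 1), with no error shown. Eosinophil genes and Kit were detected in each library, whereas the mast cell proteases and Mrgprb receptors lie below 1 on this scale.

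Other eosinophil genes were mostly lower than the granule genes and partly followed the same order. Ccr3, the receptor for eotaxins, had 7.32, 10.6 and 11.7 FPKM (chi-square test, adjusted p = 2.90e-11). Siglecf, an inhibitory lectin of the eosinophil surface, had 6.24, 7.04 and 8.11 FPKM (adjusted p = 0.0193). Alox15, the 15-lipoxygenase of eosinophils and some macrophages, had 33.2, 41.0 and 42.1 FPKM (adjusted p = 8.53e-09). In these 3 genes library 1 was the lowest and library 3 the highest. Without library 1 none of them passed (adjusted p = 0.196 for Ccr3, 0.154 for Siglecf and 0.587 for Alox15), and Siglecf did not pass without library 3 either (0.381). Il5ra, the specific chain of the IL-5 receptor, had 2.83, 3.57 and 3.33 FPKM and did not pass the chi-square test (adjusted p = 0.204). Prg3, a second major basic protein gene beside Prg2, had 74.9, 78.2 and 81.6 FPKM and did not pass it either (adjusted p = 0.338). The FPKM of Prg2 were 22.4, 28.4 and 25.1 times those of Prg3 in libraries 1, 2 and 3.

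In the whole list of other eosinophil genes 10 of 14 tested genes differed between libraries, against 38.7% of all tested genes. Called and lowest in library 1 were 7 of the 14, against 10.8% of all tested genes. The highest library exceeded the lowest by a median of 1.20 times. Its 3 most abundant genes are not specific to eosinophils. Retnlg, which also counts among the neutrophil genes, stood at 996 ± 67.9 FPKM, Cd24a of immature blood cells at 680 ± 35.6, and Csf2ra, a chain of the GM-CSF receptor, at 94.0 ± 8.14 (SD, n = 3). Retnlg and Cd24a are among the 7 called and lowest in library 1. Csf2ra had 103, 90.8 and 88.0 FPKM, highest in library 1. Other called genes of the list also had other orders. Serpinb2 had 6.58, 4.78 and 7.67 FPKM, lowest in library 2 (chi-square test, adjusted p = 9.31e-06). Ffar2 had 9.54, 10.0 and 8.15 FPKM, lowest in library 3 (adjusted p = 0.0243).

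The basophil list, of which Prss34 and Mcpt8 are members, had 8 of 10 tested genes that differed between libraries, against 38.7% of all tested genes. Called and lowest in library 1 were 3 of the 10 tested genes, against 10.8% of all tested genes. They were Prss34, Mcpt8 and Hdc, so only Hdc came in addition to the genes already described. With median-of-ratios scaling 7 differed, Gata2 being lost. Among low genes of the list, Il4, the type 2 cytokine that basophils release, had 33, 49 and 32 reads, and the surface receptor gene Cd200r3 had 84, 101 and 74 reads. Il4 did not pass the test (chi-square test, adjusted p = 0.188), and Cd200r3 lay below the filter. Ifitm1, an interferon-induced membrane protein gene, was the third most abundant, at 19.1, 22.5 and 16.8 FPKM. Csrp3, which is better known as a muscle LIM protein gene, had 2.58, 0.356 and 2.94 FPKM, lowest in library 2, as were the skeletal muscle genes given further on.

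Of 17 genes of the IgE receptor and its signalling, all tested, 11 differed between libraries, against 38.7% of all tested genes. Called and highest in library 1 were 8 of the 17, against 15.3% of all tested genes. With median-of-ratios scaling 8 differed, against 37.2% of all tested genes, and 5 of the 17 were called and highest in library 1, against 12.2%. Fcer1g, Plcg2 and Vav1 lost their calls there. The highest library exceeded the lowest by a median of 1.11 times. The most abundant after Fcer1g were Ptpn6, a phosphatase that restrains the receptor, at 102 ± 4.23 FPKM and the kinase gene Syk at 70.5 ± 2.89 (SD, n = 3). Most of these genes act in many blood cells. Lat, an adaptor of mast cells, T cells and platelets, had 12.0, 8.28 and 10.9 FPKM, with the order of Fcer1a (chi-square test, adjusted p = 8.85e-08, and 0.199 without library 2).

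Several cytokines of these cells had few or no reads in the femurs at this depth, while receptor chains for IL-3, IL-5 and GM-CSF were detected. Il5, the eosinophil growth factor, had 2 reads in library 1 and none in the others, and Il3, Csf2, Il25 and Il13 had none in any library. Ccl11, an eotaxin, had 9, 2 and 8 reads, Il33 had 25, 24 and 18, and Tslp had 4, 17 and 4. Kitl, the stem cell factor gene, stood at 13.9, 12.6 and 12.8 FPKM. The receptor chain shared by IL-3, IL-5 and GM-CSF, Csf2rb, had 16.9, 19.5 and 18.3 FPKM and was lowest in library 1 (chi-square test, adjusted p = 0.00117, but 0.139 without library 1 and 0.142 without library 2). The IL-3 receptor chain Il3ra had 7.67, 6.60 and 5.87 FPKM and was highest there (adjusted p = 0.00362, but 0.329 without library 1 and 0.0668 without library 3). Crlf2, the receptor chain for TSLP, stood at 33.1 ± 1.88 FPKM (SD, n = 3). In this list of cytokines, chemokines and receptors 8 of 12 tested genes differed between libraries, against 38.7% of all tested genes. Of the 12, 3 were called and lowest in library 1 (against 10.8% of all tested genes) and 5 called and highest there (against 15.3%). With median-of-ratios scaling 7 differed, Kitl being lost.

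Of 16 lineage transcription factors 8 differed between libraries and 6 did with median-of-ratios scaling, against 38.7% and 37.2% of all tested genes. The median between the highest and the lowest library was 1.08 times, against 1.15 times over all tested genes. The most abundant were Cebpe, a factor of late granulocytes, at 91.6 ± 3.77 FPKM, the GATA cofactor gene Zfpm1 at 83.0 ± 4.10 and Spi1, which encodes PU.1, at 76.1 ± 2.01 (SD, n = 3). Gata1, which acts in erythroid cells, megakaryocytes, eosinophils, basophils and mast cells, had 46.7, 40.3 and 50.9 FPKM. Gata2, a factor of progenitors, basophils and mast cells, had 6.40, 5.41 and 6.10 FPKM. Both were lowest in library 2 (chi-square test, adjusted p = 2.37e-11 for Gata1 and 0.0217 for Gata2). Neither call held without library 2 (adjusted p = 0.124 and 0.488), and that of Gata2 was also lost without library 1 (0.139) and with median-of-ratios scaling (0.0580).

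Granule proteins of neutrophils and their precursors were also abundant. The neutrophil elastase gene Elane stood at 502 ± 26.6 FPKM, the myeloperoxidase gene Mpo at 234 ± 20.5 and the proteinase 3 gene Prtn3 at 217 ± 14.0 (SD, n = 3). Mpo had 252, 212 and 238 FPKM in libraries 1, 2 and 3, highest where Epx was lowest (chi-square test, adjusted p = 1.04e-55). These genes belong to a list of other proteins of eosinophil and mast cell granules or crystals, which also holds galectins, granzymes and carboxypeptidases. All 8 tested genes of that list differed between libraries, against 38.7% of all tested genes, 2 of them lowest in library 1 (against 10.8%) and 4 highest there (against 15.3%). With median-of-ratios scaling 7 of the 8 differed. In the separate list of neutrophil markers, 6 of 7 differed, against 38.7% of all tested genes, and the collagenase gene Mmp8 did not pass the test. The highest library exceeded the lowest by a median of 1.10 times in that list, against 1.15 times over all tested genes.

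Markers of other cells also differed between the libraries, and their part in the results above was not tested. Against library 1, the summed FPKM of the 5 eosinophil genes were 1.30 times in library 2 and 1.23 times in library 3. For 4 osteoclast genes the factors were 3.94 and 2.996. For 5 erythroid genes they were 1.08 and 1.25, and for 7 neutrophil genes 1.10 and 1.02. For 6 monocyte and macrophage genes they were 0.987 and 1.02, and for 4 B cell genes 0.910 and 0.906. The order of the eosinophil sum, highest in library 2 and lowest in library 1, also held for the osteoclast, neutrophil, basophil and chondrocyte sums. Prg2 was the largest part of the eosinophil sum. Of the 5 eosinophil genes 2 were highest in library 2 and 3 in library 3. The erythroid sum was lowest in library 1 and highest in library 3. Of the 6 called neutrophil genes, 5 were highest in library 2 but only 3 were lowest in library 1.

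Library 2, in which Fcer1a was lowest and Mcpt8 highest, stood apart in other ways. The 3 megakaryocyte genes Pf4, Itga2b and Gp9 summed to 0.693 times library 1 there and to 1.03 times in library 3. Skeletal muscle genes were at 0.0595 times library 1, chondrocyte genes at 12.5 times and osteoblast genes at 2.34 times. Of the 5 called genes of the mast cell list, 3 were lowest in library 2, as were 2308 of the 5418 called among all tested genes. Among the 3 were Slc18a2, the vesicular monoamine transporter of mast cells and platelets, at 4.09, 2.86 and 3.44 FPKM, and Rab27b, a granule GTPase, at 8.78, 5.70 and 9.44. The other one was Srgn, at 133, 128 and 135 FPKM, whose call was lost with median-of-ratios scaling. No megakaryocyte, skeletal muscle, chondrocyte or osteoblast marker lacked reads in all 3 libraries, whereas Tpsg1 of the mast cell list did.

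**Figure D4:**
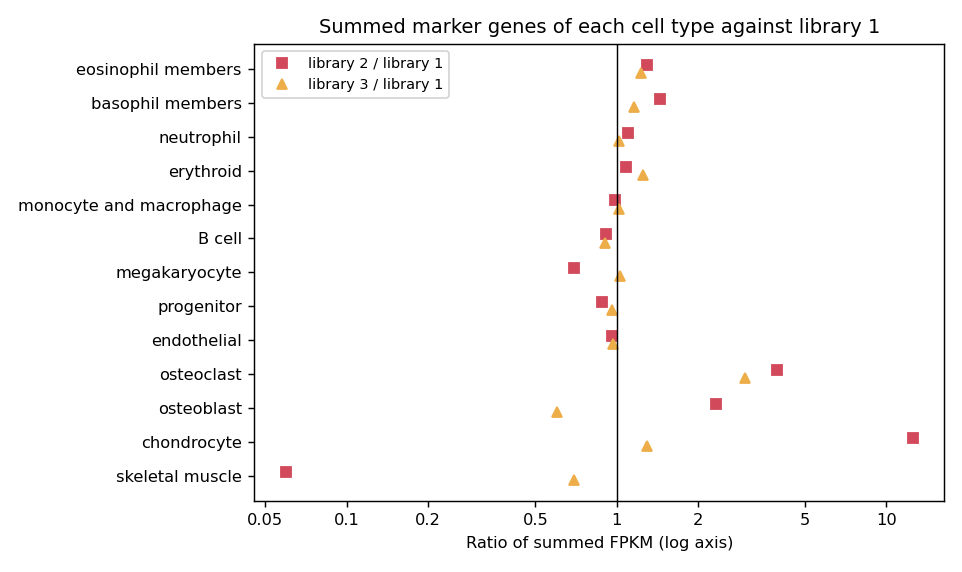
Summed FPKM of the eosinophil and basophil genes and of markers of other cells in libraries 2 and 3, divided by the sum in library 1, on a log axis. The eosinophil and basophil sums lie between 1.16 and 1.44, while osteoclast genes reach 3.94, osteoblast genes 2.34 and chondrocyte genes 12.5 in library 2 and muscle genes 0.0595.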

How the data were processed

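Total RNA of mouse femurs was sequenced. The submitters' processing notes list STAR, featureCounts, Trimmomatic and FastQC, with mm10 as the build. No version, strand setting or annotation is given in the sources used here. FPKM values were deposited by the authors with 1 length per gene, in 1 column per library. A column was used where its name matched a library name in the labels, which held for 3 columns, all OVX. The other 3 columns of values were not used. The planned limma comparison of Zin with OVX was therefore not run, and neither was the search for genes of like pattern, which needed 6 libraries.

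The product of FPKM and gene length came in whole steps of 1 read, within 0.01 read for 100% of values, and so gave the reads per gene. The chi-square test compared reads with the totals of listed reads, over genes whose mean reached 1 FPKM, with Benjamini-Hochberg adjustment and a threshold of 0.05. Fold values between libraries use the totals behind the deposited FPKM, 17279919, 16845977 and 16533661. Intervals are at 95%, exact Poisson for levels and exact Clopper-Pearson for folds, and hold only the error of counting reads. PCR copies among the reads cannot be told from independent molecules, so the intervals may be too narrow even for the error of counting. The series text speaks of biological replicates and no label names animals, so the SD and p-values measure the spread between these libraries, which may be technical.

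The 10 genes and the gene lists were chosen with earlier results of these data known. Named genes were the 10, the 3 most abundant of each list, marker genes, and receptors, ligands and subunits that act with the 10. Further list genes, such as Csrp3 and Rab27b, and the motifs were chosen after values had been seen. Of 167 listed symbols 166 were in the table. Windows shared with other transcripts were counted in GENCODE M21. RefSeq promoters matched 9 of the 10 genes. The script was tested on simulated data. Other settings were further scalings, a minimum mean of 5 FPKM, no minimum, and each library left out in turn. Python 3.11.15 was used, with scipy 1.17.1, numpy 2.4.6, pandas 2.3.3 and, for figures, matplotlib 3.10.9.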

Additional observations from a re-analysis of the deposited data

How the results depend on the processing

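The count of 9 genes that differed between libraries was also 9 with median-of-ratios scaling and with a minimum mean of 5 FPKM, where Ms4a2 fell below the filter. It was 8 with no filter and ran from 6 to 8 with 1 library left out, lowest without library 2. The calls of Ear2 and Ear6 were lost without library 1, those of Prss34 and Fcer1a without library 2, and that of Cpa3 without library 2 or 3 and with no filter, and the cause was not tested. The share of all tested genes that differed was 37.2% with median-of-ratios scaling, 44.9% with a minimum mean of 5 FPKM, 22.4% with no filter and 18.2% to 29.7% without 1 library. Mean levels moved by less than 1 SD under median-of-ratios and upper-quartile scaling. The factors lay between 0.997 and 1.003, so these means could hardly have moved. Counts of the gene lists stayed within 1.5 times with a minimum mean of 5 FPKM and with median-of-ratios scaling. The latter was chosen for the lists after seeing the data, as were all settings for named genes beyond the 10. Levels of Cpa3, Ms4a2 and Fcer1a rested on 102 to 314 reads a library, which limits their precision. No paired analysis was possible because only columns of the OVX group matched the labels. Other settings of the zingerone comparison (pseudocount, filter, scaling, replicate block, trend) were not run.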

Other observations

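Genes within 200 kb of the 10 genes, a window chosen after values had been seen, included relatives, some with levels far from theirs. Prg3 lies 4583 bases from Prg2. Near Epx, the related peroxidase gene Mpo of neutrophil precursors stood at 234 ± 20.5 FPKM and Lpo, the lactoperoxidase gene, at 0.221 ± 0.0641 (SD, n = 3). Near Mcpt8, the neutrophil protease gene Ctsg stood at 171 ± 10.5 FPKM, whereas the mast cell chymase gene Mcpt4 stood at 0.378 ± 0.396. Near Prss34, the tryptase gene Tpsab1 stood at 0.00921 ± 0.0160 FPKM, from 1, 0 and 0 reads. Ms4a3, a gene of granulocyte precursors 5777 bases from Ms4a2, stood at 45.7 ± 3.14 FPKM. Near Cpa3, the pancreatic carboxypeptidase gene Cpb1 stood at 0.0240 ± 0.0208 FPKM, from 2, 0 and 2 reads. Near Ear1 and Ear2, whose windows overlap and share neighbours, 6 of 9 and 5 of 8 protein-coding neighbours had no reads. This was not particular to them, since it was 5 of 9 near Fcer1a and 6 of 17 near Mcpt8. The share over all protein-coding genes was not counted.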
